A study of Mus musculus with 19 samples.

Results

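Pou5f1, Sox2, Sall4, Utf1, Zfp296, Trim71, Lin28a and Lin28b were followed across 19 RNA-seq libraries of mouse embryonic stem (ES) cells and their descendants. These 8 genes were chosen by name from 22756 gene entries, and each was found as an entry of its own. The cells carry Rex1-GFPd2, a destabilised green fluorescent protein (GFP) that reports activity of Rex1 (Zfp42), a gene of naive ES cells, and all groups come from this reporter line. Cells were differentiated on gelatin in serum medium, and after 2 days those lacking both GFP and the ES cell surface antigen SSEA1 were sorted. The sorted cells were kept in the same medium until day 15 without or with AICAR, a nucleoside that cells convert into a mimic of AMP and that activates the energy sensor AMPK. Undifferentiated cells, kept in LIF plus MEK and GSK3 inhibitors, gave 1 library, as did day-2 cells, day-2 sorted cells, the day-15 culture without AICAR, the unfractionated AICAR culture and its GFP-negative cells. GFP-positive AICAR cells gave 3 libraries. After AICAR, GFP-positive cells were also returned to LIF plus those inhibitors and expanded, as 8 lines from picked colonies and 2 lines from sorted cells. Nothing in the labels gives the AICAR dose or tells whether replicates were grown apart, and p-values here reflect the spread of these libraries alone, which may be technical.

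Titles and other labels disagree in places. The sorting field calls the first day-2 library sorted, although its title does not, and calls the GFP fractions of the AICAR culture unsorted. Groups here follow the titles. Each library held between 5771671 and 14233421 reads in genes. AICAR GFP-positive replicates 1 and 2 belong to a second sequencing project, per the file headers, and hold at least 12751260 reads, against at most 8262357 in the other 17 libraries. Zfp42, the gene behind the reporter, was at 435 CPM (reads per 1000000 reads in genes) in undifferentiated cells, 5.45 at day 15 without AICAR, 60.8 in AICAR GFP-negative cells and 587 ± 111 (SD, n = 3) in AICAR GFP-positive cells. Levels of 7 ES cell markers summed to 4700 CPM in undifferentiated cells, 69.9 at day 15 without AICAR, 3336 to 4424 in AICAR GFP-positive cells and 4150 to 4575 in colony lines. Pou5f1, Sox2 and the reporter gene Zfp42 are among these markers, so the sum is not independent of the 8 genes or of the sort. The summed level of 10 endoderm markers was 162 and 163 CPM in AICAR GFP-positive replicates 1 and 2 but 1275 in replicate 3, close to the 1329 of the GFP-negative library. Calls of the 8 genes that are gained or lost without replicate 3 are named beside each comparison.

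Pou5f1 encodes Oct4, a POU-domain factor that binds DNA together with Sox2 at many enhancers of ES cells and without which ES cells lose their identity. Sall4 and Zfp296 encode zinc-finger proteins of ES cells, and Utf1 encodes a chromatin-associated protein transcribed under Oct4 and Sox2. Lin28a and Lin28b encode RNA-binding proteins that bind precursors of the let-7 microRNAs and block their maturation, and Trim71 (Lin41) encodes an RNA-binding ubiquitin ligase. The let-7 family accumulates as stem cells differentiate and represses Lin28a, Lin28b and Trim71 through sites in their 3' untranslated regions (UTRs), so that Lin28 and let-7 oppose each other. MicroRNAs were not measured in these libraries.

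The let-7 sequences show what the Lin28 genes and Trim71 have in common. Mature mouse sequences from RefSeq are given with the seed, bases 2 to 8, in capitals.
mmu-let-7a-5p: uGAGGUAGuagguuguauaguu
mmu-let-7g-5p: uGAGGUAGuaguuuguacaguu
mmu-let-7i-5p: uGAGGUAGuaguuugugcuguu
mmu-miR-98-5p: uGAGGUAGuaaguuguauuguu
mmu-let-7j: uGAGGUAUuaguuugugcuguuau
Of the 11 let-7 family members in the table, 10 share the seed GAGGUAG, and let-7j has GAGGUAU. The complement of the shared seed, CTACCTC, was searched in the longest annotated 3' UTR of each of the 8 genes (GENCODE M21, GRCm38). It was found 2 times in Lin28a, 4 times in Lin28b, 4 times in Trim71 and 1 time in Sall4, and was not in the 3' UTRs of Pou5f1, Sox2, Utf1 and Zfp296. The 11 matches are printed with the match in capitals, to show how many each gene holds and which base follows them.
Lin28a, base 909 of the 3' UTR: cagcctgttgaaCTACCTCatttttgccga
Lin28a, base 1547 of the 3' UTR: atcgccacaaacCTACCTCactgtgttgaa
Lin28b, base 36 of the 3' UTR: cgggcgggaagtCTACCTCatgcaagcaca
Lin28b, base 2410 of the 3' UTR: acttgttagtaaCTACCTCtgagtttgaca
Lin28b, base 2582 of the 3' UTR: tacagcacatggCTACCTCccagctaccac
Lin28b, base 3998 of the 3' UTR: tgatggcaccgaCTACCTCttcaatcactt
Trim71, base 166 of the 3' UTR: attgcctaagtcCTACCTCagcttaaattt
Trim71, base 262 of the 3' UTR: gataatttctatCTACCTCaactctttgca
Trim71, base 3591 of the 3' UTR: agtatggattttCTACCTCaattttggcaa
Trim71, base 3617 of the 3' UTR: gcaaaaagttgtCTACCTCacgtcggcacc
Sall4, base 1082 of the 3' UTR: gctttaatttatCTACCTCaattatcttta
All matches of Lin28a, Trim71 and Sall4 are followed by an A, the base that strengthens a let-7 site, and 1 of 4 in Lin28b is. Of 20921 mouse 3' UTRs, 9.06% held a match. Among UTRs of like length (from 0.8 of the gene's own length to its length over 0.8), 2.06% held at least as many as Lin28a, 0.295% as many as Lin28b and 0.480% as many as Trim71, whereas 11.4% held at least 1, as Sall4 does. The UTRs without a match are shorter, at 221 bases in Pou5f1, 1086 in Sox2, 122 in Utf1 and 97 in Zfp296. Among UTRs of like length 1.48%, 8.13%, 0.782% and 0.952% held a match, so most such UTRs have none. A match is a description of the sequence and was not tested for use by let-7 in these cells.

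Promoters were read from RefSeq (GRCm38.p6) for 7 of the 8 genes. The 250 bases before the start are shown for Zfp296, because it alone of these 7 holds a full octamer, and for the first of the Pou5f1 starts, because that gene encodes Oct4. Capitals mark, on either strand, the octamer core ATGCNAAT bound by Oct4 and its relatives, the nuclear receptor motif AGGTCA and the GC box GGGCGG.
Zfp296, chr7:19577037-19577286, plus strand: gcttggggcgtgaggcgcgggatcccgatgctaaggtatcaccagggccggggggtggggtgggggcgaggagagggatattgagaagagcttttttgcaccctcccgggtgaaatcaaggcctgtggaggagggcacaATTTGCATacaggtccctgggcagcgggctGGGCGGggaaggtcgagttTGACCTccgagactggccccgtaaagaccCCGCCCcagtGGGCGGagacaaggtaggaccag
Pou5f1, chr17:35505782-35506031, plus strand: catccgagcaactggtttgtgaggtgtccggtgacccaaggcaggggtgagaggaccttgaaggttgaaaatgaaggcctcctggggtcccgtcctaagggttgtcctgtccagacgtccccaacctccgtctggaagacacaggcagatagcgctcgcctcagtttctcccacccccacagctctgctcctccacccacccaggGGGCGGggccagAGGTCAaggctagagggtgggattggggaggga
Zfp296 holds a full octamer, ATGCAAAT, on the reverse strand at -111 from its start, and no other promoter of the 7 genes does. That motif was in 1.75% of 32544 mouse promoters of 300 bases, and its core in 3.18%. Both printed promoters hold AGGTCA, at -33 in Pou5f1 and -62 in Zfp296, a motif found in 16.2% of promoters. GC boxes are in 35.9% of promoters. These matches are letters in a window and say nothing of binding.

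Day-15 cells without AICAR held the lowest level of all 8 genes among the 9 groups. The highest group mean was that of AICAR GFP-positive cells for Sox2, Sall4, Trim71 and Zfp296, of undifferentiated cells for Pou5f1, of day-2 cells for Utf1 and of day-2 sorted cells for Lin28a and Lin28b. With TMM scaling over all libraries, the highest mean of Zfp296 moved to the sorted lines, and the other highest and lowest groups were the same. The highest group mean was 59.6 times the lowest for Pou5f1, 38.2 times for Sox2, 80.5 times for Utf1 and 85.4 times for Zfp296. It was 7.91 times for Sall4, 11.1 times for Trim71, 12.1 times for Lin28a and 8.96 times for Lin28b. Of the 9 groups, 6 are single libraries with no spread of their own. Among the others, colony and sorted lines overlapped in all 8 genes. In CPM, AICAR GFP-positive cells overlapped both kinds of line in Zfp296 and Lin28b and the colony lines in Lin28a. With TMM factors over all 19 libraries, those cells overlapped both kinds of line in Zfp296, and the colony lines also in Lin28b, Sall4 and Trim71 but not in Lin28a. How often ranges overlap among all genes was not counted, so these overlaps describe the 8 genes only. In bulk RNA, fewer cells of a type and less RNA per cell cannot be told apart.

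**Figure D1:**
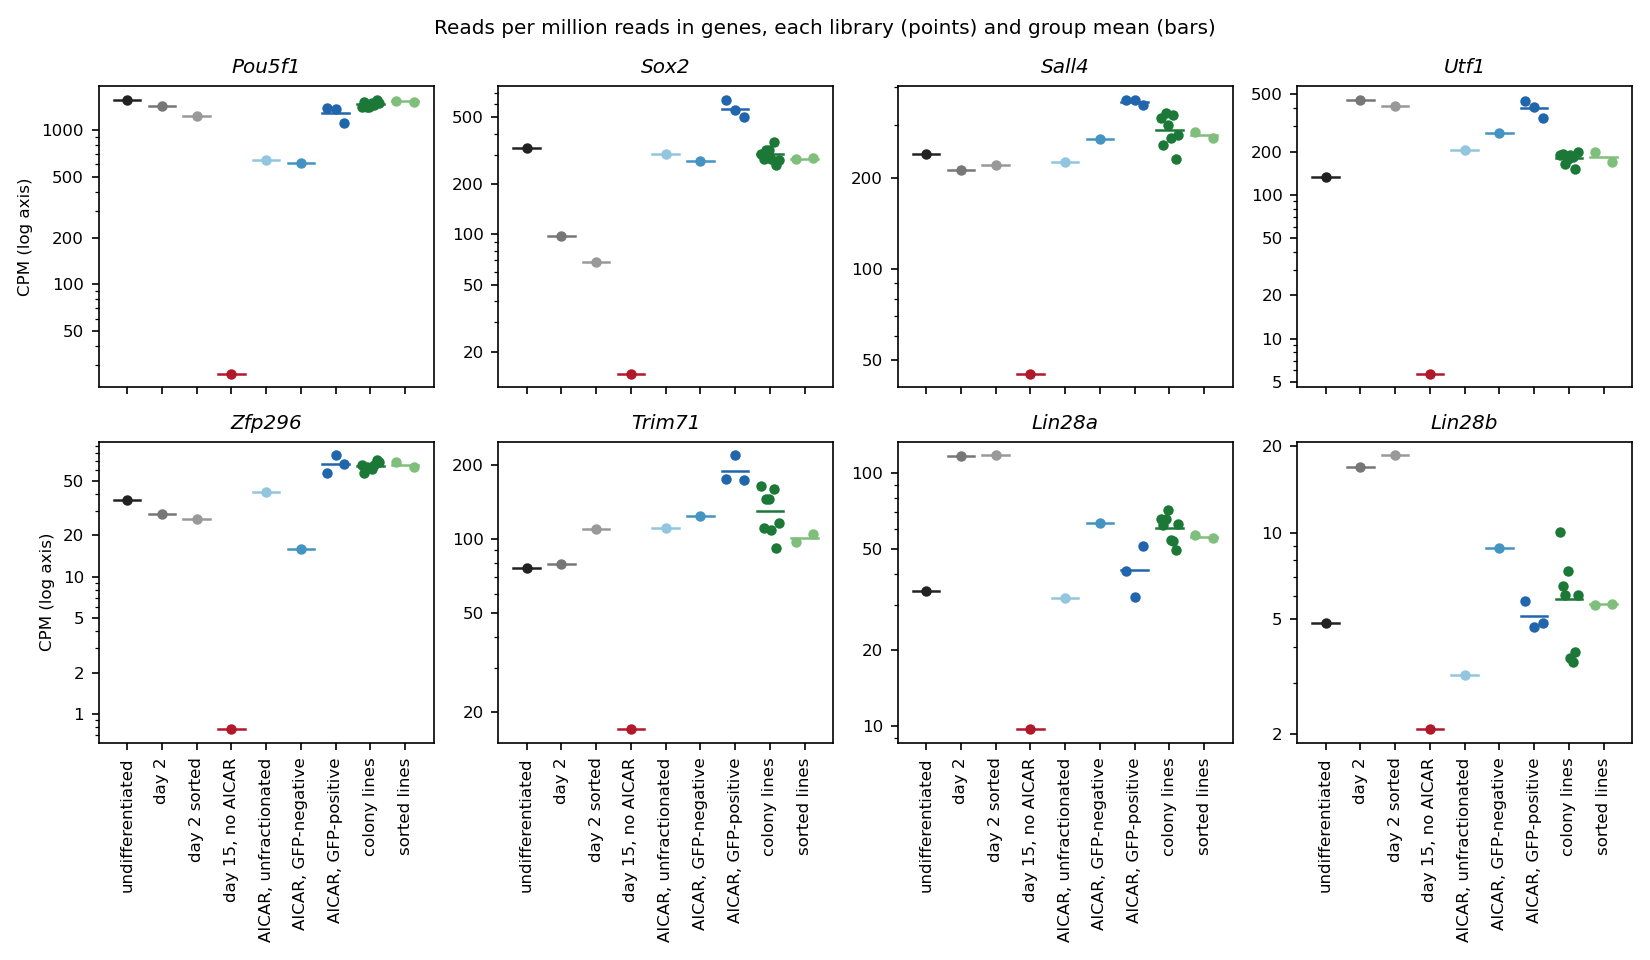
CPM of each gene in each library, on a log axis that differs between panels. Points are libraries and bars are group means (n = 1 for the first 6 groups, 3 for AICAR GFP-positive cells, 8 for colony lines and 2 for sorted lines). The red point of day 15 without AICAR is the lowest in every panel, and the day-2 points are high for Utf1, Lin28a and Lin28b but low for Sox2.

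Leaving the undifferentiated state, the first 2 days split the 8 genes. Sox2 was lower, Utf1, Lin28a and Lin28b were higher, and Pou5f1, Sall4, Trim71 and Zfp296 stayed within 2-fold. Each side is 1 library, so there is no replicate check and no p-value, and the intervals are 95% exact binomial intervals that cover counting error only.

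Sox2 was at 327 CPM in undifferentiated cells, 98.1 in day-2 cells and 68.2 in day-2 sorted cells. The undifferentiated level was 3.33 times that of day-2 cells (3.06 to 3.62) and 4.79 times that of day-2 sorted cells (4.33 to 5.31). Its partner Pou5f1 was at 1577, 1432 and 1239 CPM, so the undifferentiated level was only 1.10 times (1.07 to 1.13) and 1.27 times (1.24 to 1.31) the later ones. More than 2-fold lower at day 2 were 7.6% of 8174 genes with at least 100 reads in 1 of the libraries, and 7.87% of 7992 genes in day-2 sorted cells; Sox2 was 1 of the 8 genes in both.

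Utf1 was at 132 CPM in undifferentiated cells, 459 in day-2 cells and 417 in day-2 sorted cells, 3.48-fold (3.23 to 3.75) and 3.15-fold (2.92 to 3.40) higher. Lin28a was at 34.2, 117 and 118 CPM, 3.43-fold (2.97 to 3.98) and 3.44-fold (2.97 to 4.00) higher. Lin28b was at 4.84, 16.9 and 18.6 CPM from 33, 129 and 124 reads, 3.48-fold (2.36 to 5.27) and 3.84-fold (2.60 to 5.82) higher. The 2 Lin28 genes thus moved by about the same factor although Lin28b was far less abundant. More than 2-fold higher were 8.28% of genes in day-2 cells and 8.9% in day-2 sorted cells, against 3 of the 8 genes here in each.

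Trim71 was at 76.3, 79.6 and 109 CPM and Zfp296 at 36.4, 28.6 and 26.2 CPM in undifferentiated, day-2 and day-2 sorted cells. Sall4 was at 240, 214 and 222 CPM. Between the 2 day-2 libraries none of the 8 genes passed 2-fold, where 0.385% of 7793 genes did in either direction. Trim71 was 1.38-fold (1.23 to 1.53) higher in the sorted library and Sox2 was 1.44-fold (1.28 to 1.62) lower.

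By day 15 without AICAR, all 8 genes were more than 2-fold below the day-2 sorted cells the culture started from, where 18.6% of 9758 genes were. Pou5f1 went from 1239 to 26.4 CPM, so that the day-2 sorted level was 46.8 times the later one (40.8 to 54.1). Utf1 went from 417 to 5.70 CPM, 73.0 times (54.3 to 100.8), and Zfp296 from 26.2 to 0.778 CPM, 33.7 times (15.2 to 93.1), on 6 reads at day 15. These 3 genes had the largest ratios of the 8.

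Sall4 went from 222 to 45.2 CPM, 4.90 times (4.36 to 5.52), and Sox2 from 68.2 to 14.8 CPM, 4.61 times (3.75 to 5.72). Trim71 went from 109 to 17.0 CPM, 6.44 times (5.34 to 7.82). Lin28a went from 118 to 9.72 CPM, 12.1 times (9.55 to 15.6), and Lin28b from 18.6 to 2.07 CPM, 8.96 times (5.30 to 16.2), on 16 reads at day 15. Sox2 had already been lower at day 2, so that its whole distance from undifferentiated cells was 22.1 times (18.3 to 26.9).

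Against undifferentiated cells, 7 of the 8 genes were more than 2-fold lower at day 15, where 18.9% of 9790 genes were. Lin28b, at 33 and 16 reads, had too few reads for that count, and its ratio of 2.34 (1.25 to 4.54) is given as a value. Levels of 9 mesenchyme markers summed to 37343 CPM at day 15 and to 16.0 CPM in undifferentiated cells. The median gene with enough reads was 0.20 higher at day 15 than in undifferentiated cells on the log2 scale of library totals, and -0.03 with TMM scaling. Each difference above exceeded that shift of -0.23, the smallest, that of Lin28b, being -1.12.

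The AICAR culture at day 15 was compared with the culture of the same age without AICAR. AICAR GFP-positive cells, unfractionated AICAR cells and GFP-negative AICAR cells are each set against the same single day-15 library, so these comparisons share it. In AICAR GFP-positive cells, 7 of the 8 genes were higher than at day 15 without AICAR, by edgeR's quasi-likelihood test with Benjamini-Hochberg adjustment over 14857 genes. Of all genes tested, 23.1% were called higher. In either direction 6883 genes were called, and 2863 without replicate 2. The test assumes that the lone day-15 library varies as the others do. The GFP-positive cells were chosen by the reporter, whereas the day-15 culture was not fractionated by it. AICAR and that choice cannot be told apart in this comparison.

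Pou5f1 was at 1400, 1380 and 1116 CPM in AICAR GFP-positive replicates 1 to 3 and at 26.4 CPM at day 15 without AICAR. The difference was 5.70 ± 0.32 on the log2 scale (SE, edgeR adjusted p = 0.00183). Sox2 was at 638, 553 and 504 against 14.8 CPM, a difference of 5.34 ± 0.30 (adjusted p = 0.00178). Utf1 and Zfp296 differed most, at 452, 407 and 343 against 5.70 CPM and at 57.1, 76.5 and 65.6 against 0.778 CPM. Their log2 differences were 6.21 ± 0.34 (edgeR adjusted p = 0.00177) and 6.47 ± 0.39 (edgeR adjusted p = 0.00202). The 3 GFP-positive libraries lay far above the day-15 library for these 4 genes.

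Sall4 was at 363, 363 and 348 against 45.2 CPM, 3.06 ± 0.19 on the log2 scale (edgeR adjusted p = 0.00208). Trim71 was at 174, 219 and 173 against 17.0 CPM, 3.56 ± 0.28 (edgeR adjusted p = 0.00275), and Lin28a at 40.9, 32.5 and 51.3 against 9.72 CPM, 2.17 ± 0.33 (edgeR adjusted p = 0.00851). Lin28b was at 5.80, 4.71 and 4.84 against 2.07 CPM. Its difference of 1.38 ± 0.49 did not pass (edgeR adjusted p = 0.0725), although no GFP-positive library reached down to the day-15 value. It passed with all 19 libraries in the fit (adjusted p = 0.0423) and without GFP-positive replicate 3 (adjusted p = 0.0382). The difference was thus widest for Zfp296, Utf1, Pou5f1 and Sox2 and narrowest for the Lin28 pair.

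Unfractionated AICAR cells, 1 library, were more than 2-fold above day 15 without AICAR for all 7 genes with enough reads, where 10.9% of 9607 genes were. Pou5f1 was 24.3-fold (21.1 to 28.1) and Sox2 20.5-fold (17.0 to 25.0) higher, Sall4 was 4.99-fold (4.43 to 5.62) and Lin28a 3.31-fold (2.53 to 4.37) higher. Lin28b had 20 and 16 reads and a ratio of 1.54 (0.756 to 3.17), so that a difference was not detectable at this depth. AICAR GFP-negative cells were more than 2-fold higher for all 6 genes with enough reads, where 11.1% of 9493 genes were. Their Utf1 was 47.5-fold (35.2 to 65.6), Pou5f1 23.1-fold (20.1 to 26.8) and Lin28a 6.52-fold (5.07 to 8.48) above day 15 without AICAR. Zfp296, at 91 against 6 reads, and Lin28b, at 51 against 16, fell under the read minimum; their ratios were 20.3 (8.96 to 56.7) and 4.26 (2.39 to 8.003).

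In the unfractionated library, Sall4 (226 CPM), Utf1 (206), Trim71 (111), Lin28a (32.2) and Lin28b (3.19) were lower than in the GFP-negative library and in every GFP-positive library. With TMM scaling over all libraries Pou5f1 joined these 5 genes. The share of all genes lying this way was not counted, so the pattern cannot be called particular to these genes. Mesenchyme markers summed to 8528 CPM in the unfractionated library, 375 in the GFP-negative library and 8.71 to 107 in the GFP-positive libraries. The part of the mesenchyme signal in the lower levels was not tested.

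Between the GFP fractions of the AICAR culture, no gene passed edgeR's test, 0.0% of 13821, and hence none of the 8. At an unadjusted p under 0.05 were 3022 genes and 5 of the 8, and DESeq2 called 1210 genes and 3 of the 8 (Pou5f1, Sox2 and Zfp296). Zfp296 was at 15.8 CPM in GFP-negative cells, against 57.1, 76.5 and 65.6 CPM in GFP-positive cells, a log2 difference of 2.06 ± 0.25 (edgeR adjusted p = 0.138). Pou5f1 at 612 CPM and Sox2 at 275 CPM were also below all 3 GFP-positive libraries, with differences of 1.07 ± 0.21 (edgeR adjusted p = 0.139) and 1.03 ± 0.20 (edgeR adjusted p = 0.140). The Lin28 genes lay the other way. Lin28a was at 63.4 CPM and Lin28b at 8.84 CPM in GFP-negative cells, above all 3 GFP-positive libraries, with differences of -0.63 ± 0.27 (edgeR adjusted p = 0.260) and -0.80 ± 0.36 (edgeR adjusted p = 0.269).

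This result changed when GFP-positive replicate 3 was left out. Without it, edgeR called 3953 genes and 7 of the 8, all but Lin28b. Its endoderm marker sum, 1275 CPM against 162 and 163 in the other 2, moves with that change, and so does the sequencing project, which replicate 3 shares with the GFP-negative library. The part of either in the result was not tested.

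AICAR GFP-positive cells and the day-2 sorted cells that entered the AICAR culture differed in 4 of the 8 genes. Sox2 and Zfp296 were higher in AICAR GFP-positive cells, where 3.18% of 13857 genes were called higher. Lin28a and Lin28b were lower, where 2.6% were called lower. The day-2 cells were sorted for lacking GFP and the AICAR cells were chosen for holding it. AICAR, time in culture and these opposite choices cannot be told apart here. Sox2 was at 638, 553 and 504 against 68.2 CPM, a log2 difference of 2.99 ± 0.23 (edgeR adjusted p = 0.0150). Zfp296 was at 57.1 to 76.5 against 26.2 CPM, 1.28 ± 0.23 (edgeR adjusted p = 0.0456). Lin28a was at 32.5 to 51.3 against 118 CPM, -1.57 ± 0.25 (edgeR adjusted p = 0.0376), and Lin28b at 4.71 to 5.80 against 18.6 CPM, -1.92 ± 0.30 (edgeR adjusted p = 0.0365). The GFP-positive libraries spanned the undifferentiated levels of Lin28a (34.2 CPM) and Lin28b (4.84 CPM), and all 3 lay above that of Sox2 (327 CPM).

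Pou5f1 differed by 0.01 ± 0.19 (edgeR adjusted p = 0.986) and Utf1 by -0.12 ± 0.20 (edgeR adjusted p = 0.734), and for both the day-2 sorted value lay within the range of the GFP-positive libraries. Sall4, 0.63 ± 0.14 (edgeR adjusted p = 0.0661), and Trim71, 0.72 ± 0.20 (edgeR adjusted p = 0.0940), lay above the day-2 sorted value in all 3 libraries without passing. Both passed by DESeq2 (adjusted p = 0.00624 for Sall4 and 0.028 for Trim71) and by edgeR without replicate 3 (adjusted p = 0.00356 and 0.00592), and Sall4 also with all 19 libraries in 1 fit (edgeR adjusted p = 0.0121). Without replicate 1 only Sox2 passed, without replicate 2 none of the 8 did, and without replicate 3 6 of the 8 did. Over all genes 801 were called, and 269, 0 and 4152 without replicates 1, 2 and 3. The differences themselves moved less, to -2.03 and -1.87 for Lin28b and 1.36 and 1.15 for Zfp296 without replicates 1 and 2. In the first sequencing project alone, with 1 library a side and no test, that of Lin28a was -1.19.

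Against undifferentiated cells, AICAR GFP-positive cells were higher in Utf1 and Trim71, where 2.43% of 13640 genes were called higher. Utf1 was at 452, 407 and 343 against 132 CPM, 1.42 ± 0.23 on the log2 scale (edgeR adjusted p = 0.0454). Trim71 was at 174, 219 and 173 against 76.3 CPM, 1.13 ± 0.20 (edgeR adjusted p = 0.0494). Both calls were lost without GFP-positive replicate 1 and without replicate 2, and without replicate 3, 6 of the 8 genes passed. Over all genes 689 were called, and 50, 0 and 4158 without replicates 1, 2 and 3. Sox2, 0.62 ± 0.20 (edgeR adjusted p = 0.120), Zfp296, 0.69 ± 0.22 (edgeR adjusted p = 0.117), and Sall4, 0.40 ± 0.14 (edgeR adjusted p = 0.142), lay above the undifferentiated value in all 3 libraries. Pou5f1 lay below it, -0.46 ± 0.19 (edgeR adjusted p = 0.182). These 4 genes passed without replicate 3. Sox2 also passed by DESeq2 (adjusted p = 0.0385), and Sox2, Zfp296 and Pou5f1 passed with all 19 libraries in 1 fit (edgeR adjusted p = 0.00976, 0.00405 and 0.0208). Lin28a, 0.10 ± 0.29, and Lin28b, -0.10 ± 0.39, spanned it. Medium, AICAR, time in culture, choice by the reporter and, for replicates 1 and 2, sequencing project cannot be told apart in this comparison.

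**Figure D2:**
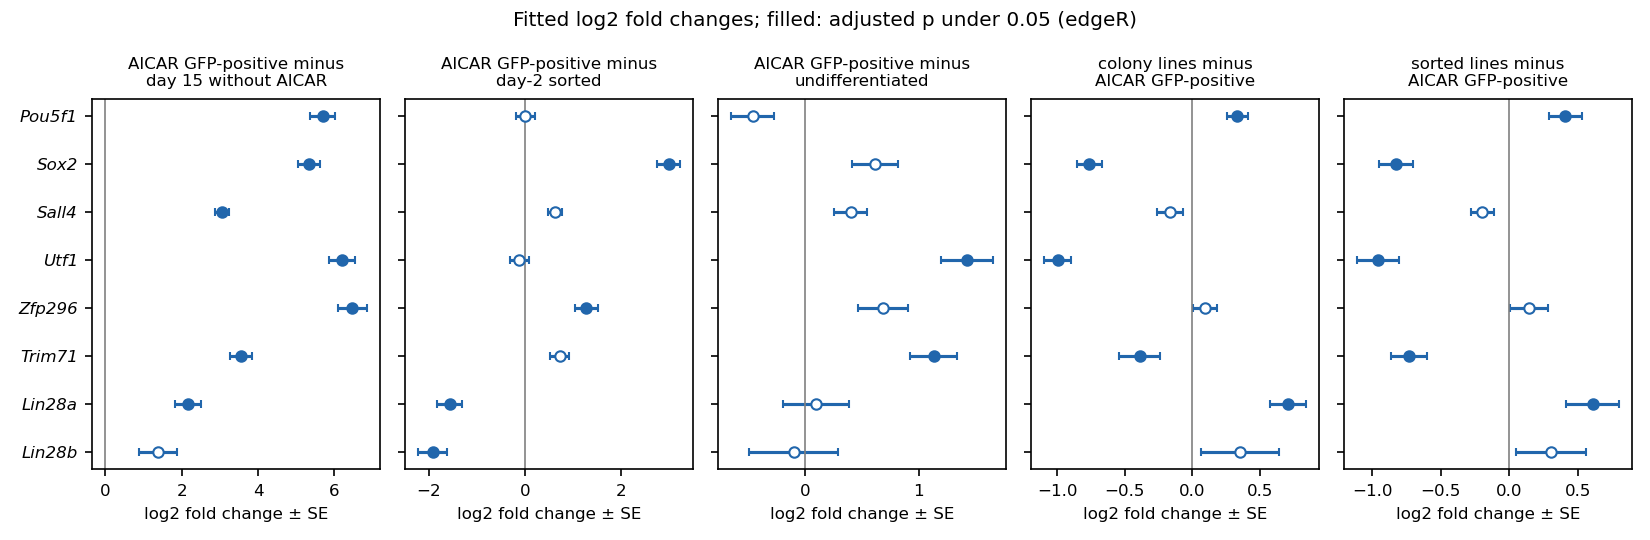
Fitted log2 fold changes of the 8 genes (x axis, bars are ± SE) in 5 comparisons, filled where edgeR's adjusted p was under 0.05. All points of the left panel lie above 1 and all but Lin28b are filled, and in both panels of expanded lines Sox2, Utf1 and Trim71 lie left of 0 and Pou5f1 and Lin28a right of it. All 5 panels share the same 3 GFP-positive libraries, and the x axes differ.

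In lines expanded from GFP-positive cells in LIF plus both inhibitors, 5 of the 8 genes differed from the AICAR GFP-positive cells. All lines are from the first sequencing project, and GFP-positive replicates 1 and 2 are from the second. Medium, the end of AICAR, time in culture and, in part, project cannot be told apart in this comparison. In colony lines, 2 genes rose, Pou5f1 and Lin28a, where 27.6% of 12225 genes were called higher, and 3 fell, Sox2, Utf1 and Trim71, where 30.3% were called lower. The share of the 8 genes called is therefore near that of all genes.

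Sox2 had a lowest, median and highest level of 259, 294 and 357 CPM over the 8 colony lines, against 638, 553 and 504 CPM before expansion. The groups did not overlap, and the difference was -0.76 ± 0.09 (edgeR adjusted p = 1.1e-05). Utf1 had 152, 187 and 200 CPM against 452, 407 and 343, -0.998 ± 0.097 (edgeR adjusted p = 1.66e-06). Pou5f1 had 1414, 1479 and 1563 CPM against 1400, 1380 and 1116, 0.33 ± 0.08 (edgeR adjusted p = 0.00227). The Pou5f1 groups were close but did not overlap.

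Lin28a had 49.7, 62.5 and 71.2 CPM against 40.9, 32.5 and 51.3, and the groups overlapped. Its difference was 0.71 ± 0.13 (edgeR adjusted p = 0.000469). Trim71 had 92.1, 131 and 165 CPM against 174, 219 and 173, -0.39 ± 0.15 (edgeR adjusted p = 0.0393). This was the weakest call, lost without GFP-positive replicate 1 or 2 or without colony line 3, 6 or 10, and with no filter on low counts (edgeR adjusted p = 0.055). Sall4 (231, 288 and 328 CPM), Zfp296 (57.0, 63.7 and 70.2 CPM) and Lin28b (3.54, 6.06 and 10.1 CPM) did not pass, with differences of -0.17 ± 0.09, 0.09 ± 0.09 and 0.35 ± 0.29.

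Some of these calls changed with the libraries used and with the scaling. The first sequencing project alone leaves GFP-positive replicate 3, the library with the 1275 CPM of endoderm markers, as the only one on its side, so that project, library and number of libraries cannot be told apart. There Pou5f1 (0.60, edgeR adjusted p = 0.000325), Sox2 and Utf1 passed, Lin28a (0.44, adjusted p = 0.0527) and Trim71 (-0.22, adjusted p = 0.473) did not. Scaling by library totals moved the median of all genes from -0.03 to -0.18, and Sall4 then passed as lower (-0.32, edgeR adjusted p = 0.0119) while Zfp296 turned to -0.060.

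The 2 sorted lines were set against the same 3 GFP-positive libraries. Pou5f1 and Lin28a rose, where 17.5% of 12593 genes were called higher, and Sox2, Utf1 and Trim71 fell, where 19.1% were called lower. Sox2 was at 284 and 284 CPM, -0.83 ± 0.13 (edgeR adjusted p = 0.00515), Utf1 at 198 and 170 CPM, -0.96 ± 0.15 (edgeR adjusted p = 0.00555), and Trim71 at 97.6 and 105 CPM, -0.73 ± 0.13 (edgeR adjusted p = 0.00858). Pou5f1 was at 1548 and 1522 CPM, 0.41 ± 0.12 (edgeR adjusted p = 0.0391), and Lin28a at 56.8 and 55.4 CPM, 0.60 ± 0.19 (edgeR adjusted p = 0.0489). By library totals, where the median of all genes moved from -0.05 to -0.22, the rises of Pou5f1 (adjusted p = 0.142) and Lin28a (adjusted p = 0.121) no longer passed, Sall4 passed as lower (-0.37, edgeR adjusted p = 0.0166) and Zfp296 turned to -0.023. Leaving out either sorted line leaves 1, and none of the 8 then passed; over all genes 4617 were called, and 321 and 387 without sorted line 1 and 2. Sall4 passed as lower without GFP-positive replicate 3 (-0.22, edgeR adjusted p = 0.0245). Pou5f1 also lost its call without GFP-positive replicate 2, and Lin28a without replicate 1 or 2.

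Between colony and sorted lines edgeR called 0.0% of 11870 genes and none of the 8, of which none had an unadjusted p under 0.05 (the smallest was 0.0735, Trim71). Over all genes, 1092 had an unadjusted p under 0.05, and DESeq2 called 2 genes and none of the 8. The difference of Trim71 was 0.34 ± 0.18 and that of Lin28b 0.06 ± 0.34, so the precision differs much between genes. Pou5f1 differed by -0.07 ± 0.06.

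Colony lines were compared with the undifferentiated cells grown in the same inhibitors. None of the 8 genes passed, and 4 of 12314 genes (0.0325%) were called in either direction. At an unadjusted p under 0.05 were 2385 genes and 4 of the 8, and DESeq2 called 383 genes and 3 of the 8 (Utf1, Lin28a and Zfp296). Every colony line lay above the undifferentiated library in Zfp296 (57.0 to 70.2 against 36.4 CPM, 0.80 ± 0.13, edgeR adjusted p = 0.0616), Lin28a (49.7 to 71.2 against 34.2 CPM, 0.82 ± 0.19, edgeR adjusted p = 0.103) and Trim71 (92.1 to 165 against 76.3 CPM, 0.76 ± 0.26, edgeR adjusted p = 0.174). The same held for Utf1 (152 to 200 against 132 CPM, 0.45 ± 0.14, edgeR adjusted p = 0.159). The share of all genes with every line on 1 side of this single library was not counted, so the pattern cannot be called particular to these genes. Zfp296 passed without colony line 7 and without line 9, Lin28a without line 9. Pou5f1 differed by -0.10 ± 0.09 and Sox2 by -0.13 ± 0.13.

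Levels were compared between genes on the authors' RPKM, a read count scaled by gene model length and library size. In undifferentiated cells Pou5f1 was at 1710, Sox2 at 246, Utf1 at 132, Sall4 at 73.4, Lin28a at 50.2, Zfp296 at 26.3, Trim71 at 20.7 and Lin28b at 5.24 RPKM. Pou5f1 was the most abundant of the 8 genes, and Lin28b the least, in this library. The gene model length behind the Pou5f1 RPKM ranged from 937 to 1127 bases between libraries and was longest at day 15 without AICAR, so its RPKM is less comparable across libraries than its CPM.

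The ratio of Sox2 to Pou5f1 RPKM differed between culture stages. It was 0.144 in undifferentiated cells, 0.143 ± 0.0177 (SD, n = 8) in colony lines and 0.130 in both sorted lines. In day-2 and day-2 sorted cells it was 0.0474 and 0.0382. In the AICAR culture it was 0.334 in unfractionated, 0.322 in GFP-negative and 0.323 ± 0.0246 (SD, n = 3) in GFP-positive cells, and at day 15 without AICAR, where both genes were low, 0.459. The 3 GFP-positive libraries (0.303 to 0.351) and the 8 colony lines (0.116 to 0.167) did not overlap. Behind these ratios, Pou5f1 model lengths were 1055, 1035 and 961 bases in GFP-positive replicates 1 to 3. In colony lines they were 937 to 973 bases, so part of the difference in ratio comes with the model length.

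Utf1 was at 0.534 of the RPKM of Sox2 in undifferentiated cells and at 6.19 and 8.07 times in day-2 and day-2 sorted cells. It was at 0.935 ± 0.0369 (SD, n = 3) in AICAR GFP-positive cells and 0.802 ± 0.105 (SD, n = 8) in colony lines. Lin28a was above Lin28b in every library, from 6.36 times at day 15 without AICAR to a mean of 15.3 ± 3.96 (SD, n = 8) times in colony lines. The Lin28 ratio was 9.58, 9.46 and 8.60 in undifferentiated, day-2 and day-2 sorted cells, so both genes kept nearly the same proportion while each more than tripled. No test was made on these ratios.

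**Figure D3:**
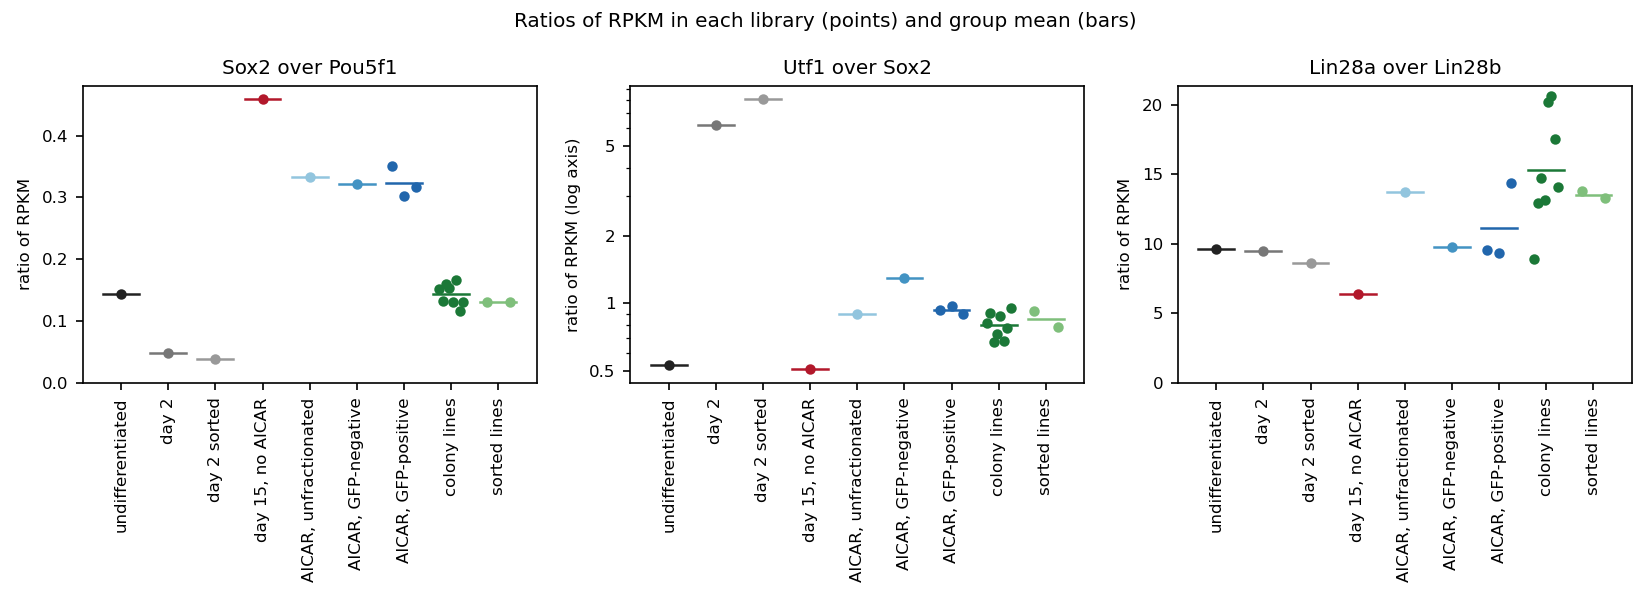
Ratios of RPKM in each library (points; bars are group means), on a log axis in the middle panel and on axes from 0 in the others. Sox2 over Pou5f1 lies near 0.32 in the AICAR culture and near 0.14 in undifferentiated cells and colony lines, and Utf1 over Sox2 stands out at day 2.

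The 8 colony lines varied unequally among the genes. Pou5f1 had a coefficient of variation of 3.70%, lower than most of 173 genes within 2-fold of its mean, of which 8.09% varied less. Trim71 had 20.4%, and 96.7% of 2423 genes of like level varied less; Lin28b had 37.8%, and 93.9% of 2481 genes varied less. Counting alone gives 3.34% for Trim71 and 15.6% for Lin28b. Sall4 and Lin28a had 12.1% each, Sox2 10.4%, Utf1 8.89% and Zfp296 6.70%.

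Lines 1, 4, 5 and 7 held the 4 highest values of Sox2, of Sall4 and of Trim71. Line 9 was lowest in Sox2, Sall4, Utf1, Lin28a and Trim71 and highest in Pou5f1 and Zfp296. Trim71 was at 165, 159, 145 and 145 CPM in lines 1, 7, 4 and 5, and at 92.1 CPM in line 9. Lin28b ran from 3.54 CPM (21 reads) in line 7 to 10.1 CPM (72 reads) in line 1. This is a description of 8 lines, and no split of the lines was tested.

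**Figure D4:**
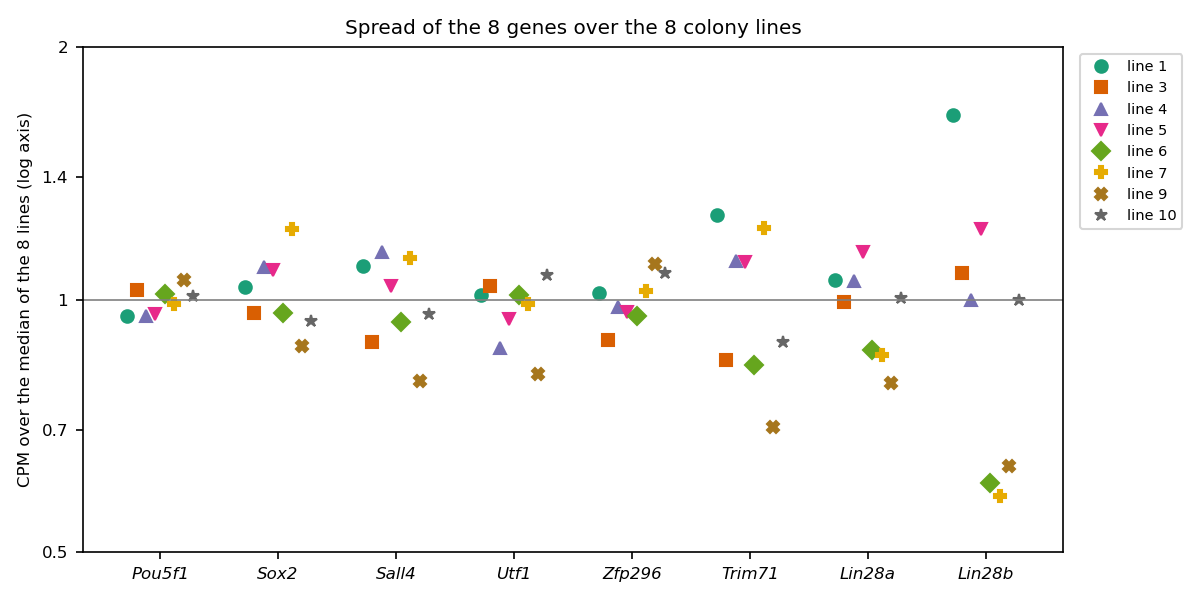
Each gene's CPM in the 8 colony lines over the median of the lines, on a log axis. Pou5f1 points lie close to 1, whereas Trim71 and Lin28b spread widely, with line 9 (brown crosses) low in Sox2, Sall4, Utf1, Trim71 and Lin28a.

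Over the 9 group means, the likeness of 2 genes was taken as the Pearson correlation of log2(mean CPM + 1). It is a description over 9 points, most of them 1 library, and day 15 without AICAR is low for all. Sall4 ran closest with Trim71 (r = 0.970) and Zfp296 (r = 0.939), Pou5f1 with Zfp296 (r = 0.936) and Lin28a with Lin28b (r = 0.930). Sox2 and Lin28b were least alike (r = 0.0114). Among 11200 genes with at least 10 CPM in 1 group, the nearest to Pou5f1 were Tdgf1, the Nodal co-receptor Cripto (r = 0.994), Dppa4, a chromatin protein of pluripotent cells (r = 0.993), and Rpa2, a subunit of the single-strand DNA-binding complex RPA (r = 0.991). Nearest to Zfp296 were Zfp960 (r = 0.991), Gbx2, a homeobox factor (r = 0.987), and Tsfm, a mitochondrial elongation factor (r = 0.986).

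The nearest to Sox2 were Gm8615 (r = 0.989), Cecr5 (r = 0.986) and Nanp (r = 0.985), and to Utf1 Fam169a (r = 0.995), the tRNA methyltransferase subunit Trmt6 (r = 0.995) and 2410007B07Rik (r = 0.994). Sall4 had the joined entry 4930507D05Rik+Supv3l1 (r = 0.996), Pipox (r = 0.996) and the kinase gene Rps6ka1 (r = 0.991), and Trim71 had Zfp932 (r = 0.986), the poly(A) polymerase Papola (r = 0.981) and the RNA polymerase I factor Rrn3 (r = 0.980). Lin28a had Otud6b (r = 0.975), Trmt61a (r = 0.971) and the helicase gene Dhx15 (r = 0.964). Lin28b had Prss50 (r = 0.982), the phospholipase Plcg2 (r = 0.981), which was at 66.9 CPM in undifferentiated cells and 442 in day-2 cells, and Zswim5 (r = 0.978).

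Genes known to be bound or driven by Oct4 and Sox2 were read from a list of 15. Against day 15 without AICAR, 14 of 15 were higher in AICAR GFP-positive cells and none was lower, with a median log2 difference of 4.61 where the median of all genes was -0.03 and 23.1% were called higher and 23.2% lower. Nanog, the homeobox factor of naive cells, differed by 6.04 ± 0.34 (edgeR adjusted p = 0.00178), Fgf4 by 5.79 ± 0.30 (edgeR adjusted p = 0.00172), L1td1, an RNA-binding protein gene, by 5.73 ± 0.29 (edgeR adjusted p = 0.00169), and Zfp42 by 6.83 ± 0.43 (edgeR adjusted p = 0.00212). Zfp42 drives the reporter by which these cells were chosen. Against day-2 sorted cells 7 of 15 were higher and none lower, where 3.18% of all genes were higher and 2.6% lower. In colony lines against AICAR GFP-positive cells 7 rose and 3 fell, where 27.6% of all genes rose and 30.3% fell, with Nanog 1.16 ± 0.10 higher (edgeR adjusted p = 7.17e-07) and Otx2, a homeobox factor of the formative state, at -5.60 ± 0.14 (edgeR adjusted p = 1.46e-11). Otx2 was at 110 ± 11.5 CPM (SD, n = 3) in AICAR GFP-positive cells, 2.03 ± 0.536 (SD, n = 8) in colony lines and 2.35 in undifferentiated cells. For AICAR GFP-positive against undifferentiated cells, the median log2 difference of the 15 genes was -0.07, where that of all genes was 0.07. Nanog was lower there, by -1.35 ± 0.19, and Otx2 higher, by 5.36 ± 0.28.

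The let-7 pathway was read from 2 lists. Of 10 genes of microRNA maturation and let-7 decay in the files, 7 were higher in AICAR GFP-positive cells than at day 15 without AICAR and 1 was lower, with a median of 0.99, where 23.1% of all genes were higher and 23.2% lower. Drosha, the nuclear microRNA-processing nuclease, differed by 1.30 ± 0.16 (edgeR adjusted p = 0.00562), Xpo5, the export receptor of precursors, by 1.14 ± 0.17 (edgeR adjusted p = 0.00795), and Dis3l2, the nuclease that degrades uridylated pre-let-7, by 1.45 ± 0.22 (edgeR adjusted p = 0.00882). Tarbp2, a partner of Dicer, differed by 1.14 ± 0.19 (edgeR adjusted p = 0.00998). In colony lines 3 of the 10 rose, a share near the 27.6% of all genes, and 5 fell, where 30.3% of all genes did, among them Dis3l2 (-0.95 ± 0.12, edgeR adjusted p = 1.07e-05) and Zcchc11, the uridyl transferase recruited by Lin28a (-0.49 ± 0.10, edgeR adjusted p = 0.000584). Lin28a itself rose in that comparison.

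Of 19 known let-7 targets, 10 were higher and 3 lower in AICAR GFP-positive cells than at day 15 without AICAR, with a median of 0.96. Over all genes 23.1% were higher and 23.2% lower. Mycn (2.66 ± 0.26, edgeR adjusted p = 0.00373), Hmga1 (2.50 ± 0.21, edgeR adjusted p = 0.00297), Dna2 (1.95 ± 0.19, edgeR adjusted p = 0.00377) and Cdc34 (1.89 ± 0.17, edgeR adjusted p = 0.00339), genes of growth, chromatin, replication and the cell cycle, were higher. Hmga2, Arid3a and Ccnd2 were lower, so the targets did not move as 1 group. In colony lines 8 of 19 rose and 9 fell, with a median of -0.20, where 27.6% of all genes rose and 30.3% fell. Ccnd2, a D-type cyclin, was at 24.6 ± 8.56 CPM (SD, n = 3) in AICAR GFP-positive cells, 0.467 ± 0.135 (SD, n = 8) in colony lines and 195 CPM at day 15 without AICAR, and Mycn fell from 163 ± 20.1 to 51.4 ± 4.70 CPM. Their log2 differences in colony lines were -5.53 ± 0.25 (edgeR adjusted p = 2.09e-09) and -1.52 ± 0.09 (edgeR adjusted p = 2.74e-08).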

How the data were processed

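RNA of 19 libraries was measured by stranded mRNA sequencing. The deposited tables give whole read counts per gene, made by the authors with rpkmforgenes on RefSeq gene models of build mm9 with 3' UTRs left out, per the file headers. The RPKM values are the authors' own, computed on the same models, per the file headers. The submitters' processing notes name bcl2fastq, CASAVA 1.8.2, Trimmomatic 0.3.3, TopHat2 2.0.14 and Bowtie2 2.2.5.

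From the counts, CPM were computed over reads in genes; the fitted differences use TMM scaling instead. Groups with a replicated side were tested with edgeR 4.0.16 in R 4.3.3 (quasi-likelihood, TMM, minimum count 10 and total 15, only the libraries compared, adjusted p under 0.05, no replicate block). The SE is the log2 fold change over the square root of its F statistic. Pairs of single libraries were compared by the ratio of CPM (for log2 values with a prior count of 2), and the call is more than 2-fold among genes with at least 100 reads in 1 of them; reads are not independent molecules, so the 95% intervals cover counting error only. DESeq2 1.42.0, other scalings and filters, 1 fit of all libraries, 1 sequencing project and leaving out each replicate were the alternatives. The tests were also run on simulated data drawn with the same spread for every library, which cannot check the assumption made for lone libraries. The 8 genes are named in each comparison; of each pathway list, the 4 genes with the smallest adjusted p in AICAR GFP-positive cells against day 15 without AICAR and the 2 smallest in colony lines against AICAR GFP-positive cells are named, and for each gene the 3 most alike over group means. Hmga2 and Arid3a were named after their values were seen. The genes, lists and comparisons were chosen with earlier results of these data known.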

Additional observations from a re-analysis of the deposited data

Results flagged for a closer look

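In each of 38 values given for the 8 colony lines (the genes, their ratios, the named pathway genes and the summed marker levels), the line farthest from the others was compared with the range of the group. Such a check marks about 1 in 20 groups by chance, and it marked 7 of the 38, none of them a value of the 8 genes. Line 7 stood lowest in Zfp42, the reporter gene, at 358 CPM, in the POU factor gene Pou4f2 at 1.68 CPM, in the summed neural markers at 79.8 CPM and in the summed keratin epithelium markers at 228 CPM. Line 9 stood lowest in the export receptor Xpo5 at 179 CPM. Line 4 stood highest in the summed mesenchyme markers at 126 CPM, and line 5 in the summed endoderm markers at 23.6 CPM.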

How the results depend on the processing

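Values below are numbers of the 8 genes called, or log2 differences, under other settings. Against GFP-negative cells, 0 genes of the 8 were called, 3 by DESeq2, 4 with all 19 libraries in 1 fit and 0 to 7 when 1 replicate was left out. Against undifferentiated cells, 2 were called, 5 with all libraries in 1 fit and 0 to 6 with 1 replicate left out. Against day-2 sorted cells, 4 were called and 0 to 6 with 1 replicate left out. Sorted lines against AICAR GFP-positive cells had 5, and 0 to 6 with 1 replicate left out. Colony lines against AICAR GFP-positive cells had 5. Trim71 lost its call with some replicates left out or with no filter on low counts, and Sall4 gained one by library totals. Fewer were called in the first sequencing project alone, which leaves 1 GFP-positive library. Colony lines against undifferentiated cells had 0, 3 by DESeq2 and 0 to 2 with 1 line left out. The 7 genes higher in AICAR GFP-positive cells than at day 15 stayed 7 or 8 under every setting with a test. The cause of these changes was not tested.

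Signs turned only for differences that were not called. For Pou5f1 against day-2 sorted cells the value was -0.028 by DESeq2, -0.018 with all libraries in 1 fit, -0.15 in the first sequencing project alone and -0.065 to 0.10 with 1 replicate left out. Library totals gave 0.080 for Lin28b in AICAR GFP-positive against undifferentiated cells, and for Zfp296 -0.060 in colony lines and -0.023 in sorted lines against AICAR GFP-positive cells. With 1 replicate left out, Lin28a in AICAR GFP-positive against undifferentiated cells ran from -0.072 to 0.26. In the first sequencing project alone it was 0.58, a ratio without a test. Between colony and sorted lines, with 1 replicate left out, Utf1 ran from -0.14 to 0.086, Lin28b from -0.10 to 0.14 and Zfp296 from -0.11 to 0.018.

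Over all genes, the number called against day 15 without AICAR was 6883, and 2863 to 9413 with 1 replicate left out. Against day-2 sorted cells it was 801 by edgeR, 1994 by DESeq2, 4236 with all libraries in 1 fit and 0 to 4152 with 1 replicate left out. Against undifferentiated cells it was 689, 2102, 4304 and 0 to 4158, and 1038 without a filter. Against GFP-negative cells it was 0, 1210, 3548 and 0 to 3953. Sorted lines against AICAR GFP-positive cells had 4617, and 7868 in the first sequencing project alone, or 321 to 6514 with 1 replicate left out. Colony lines against undifferentiated cells had 4, 383 by DESeq2, 1 by library totals and 0 to 118 with 1 line left out. Colony lines against AICAR GFP-positive cells had 7073, and 6430 to 7126 with 1 replicate left out. Numbers 1 and 2 are shared by AICAR GFP-positive cells and sorted lines, but no label pairs them, and the difference between numbers correlated at r = 0.0389 over genes. With the replicate block 6951 genes and 6 of the 8 were called, Sall4 being added (edgeR adjusted p = 0.0193). Lin28b is limited by depth, at 16 to 129 reads in single libraries.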

Other observations

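Genes of the same families as the 8 genes were read from a list of 21, of which 20 were tested in AICAR GFP-positive cells against day 15 without AICAR. Of these, 6 were higher and 4 lower, with a median log2 difference of 0.23 where that of all genes was -0.03. Those counts are near the shares of all genes, 23.1% higher and 23.2% lower. Sall1, a zinc-finger relative of Sall4, was at 813 ± 197 CPM (SD, n = 3) in AICAR GFP-positive cells and 48.1 CPM at day 15 without AICAR, a difference of 4.16 ± 0.43 (edgeR adjusted p = 0.00405). The POU genes Pou4f2 (6.87 ± 0.63, edgeR adjusted p = 0.00339) and Pou2f1 (2.49 ± 0.29, edgeR adjusted p = 0.00487) were higher, and the Trim71 relative Trim3 was lower (-1.42 ± 0.20, edgeR adjusted p = 0.00754).

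In colony lines against AICAR GFP-positive cells, 13 of 18 tested relatives fell and 2 rose, with a median of -1.18, where 30.3% of all genes fell and 27.6% rose. Sall1 fell to 223 ± 16.8 CPM (SD, n = 8), near the 213 CPM of undifferentiated cells (-1.72 ± 0.12, edgeR adjusted p = 6.72e-08). Sox4 was at 66.3 ± 18.2 CPM (SD, n = 3) before expansion and 10.7 ± 3.11 CPM (SD, n = 8) after it (-2.49 ± 0.21, edgeR adjusted p = 3.89e-07), and at 162 CPM at day 15 without AICAR. The Sox genes Sox7 and Sox17 of this list are also among the endoderm markers, which summed to 162 to 1275 CPM in AICAR GFP-positive cells and 2.31 to 23.6 CPM in colony lines.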
